A study of Homo sapiens with 6 samples.

Results

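The 10 genes described here encode ISG15, the enzymes that attach it to and remove it from other proteins, and interferon-linked members of the PARP family with a ligase partner. They were taken by name from a deposited table of 60843 genes, and all 10 passed the filter on low values. They were chosen by their FPKM values in the groups compared below, whose difference was already known, so these values are given as a description, with no test. The RNA came from SW872-S, an established human line of liposarcoma cells, and was sequenced in bulk. The group called NC (genotype TP53INP2 NC, 3 libraries) was the negative control, and the group called TP53INP2_OE (genotype TP53INP2 OE, 3 libraries) carried a plasmid that overexpresses TP53INP2, a gene whose protein takes part in autophagosome formation. All 6 libraries came from SW872-S grown in DMEM with fetal bovine serum. The labels do not say whether a group's libraries came from separate cultures, whether the cells were 1 clone, or what its promoter was, so p-values measure only the spread between these libraries. The design text speaks of cells from more than a single source, and whether the groups also differ in this way cannot be told apart here.

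ISG15 is a small ubiquitin-like protein that cells make in response to interferon. It is joined to target proteins by a chain of enzymes: UBA7 activates it (E1), UBE2L6 carries it (E2), and HERC5 is the main human ligase (E3), while USP18 cuts it off again and also dampens signalling at the type I interferon receptor. PARP enzymes add ADP-ribose to proteins or nucleic acids, and PARP9, PARP12 and PARP14 are among the family members induced by interferon. DTX3L is a ubiquitin ligase that forms a complex with PARP9.

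The promoters of most of these genes hold the letters that interferon-activated factors read. RefSeq windows from 250 bases before to 50 bases after a gene start (build GRCh38.p14) were found for 8 of the 10 genes, in 10 windows. UBA7 and USP18 had no entry. They were searched on both strands for GAAA, any 2 bases and GAAA, the core of the interferon-stimulated response element (ISRE). It was present in windows of 6 of the 8 genes. This counts genes, while the share over all 35116 windows of that length, 3.57%, counts windows. PARP9 and DTX3L share a single match, and the other window of PARP9 held none. The stretches around the matches in these 6 genes are shown 5′ to 3′ on the strand of the gene, with matches in capitals.
ISG15: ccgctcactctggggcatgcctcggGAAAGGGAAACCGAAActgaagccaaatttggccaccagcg
HERC5: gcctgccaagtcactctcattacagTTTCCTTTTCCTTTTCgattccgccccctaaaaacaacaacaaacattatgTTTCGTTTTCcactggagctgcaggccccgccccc
PARP9: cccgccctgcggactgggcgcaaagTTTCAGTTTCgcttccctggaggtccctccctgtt
DTX3L: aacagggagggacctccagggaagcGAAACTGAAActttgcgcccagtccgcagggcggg
PARP12: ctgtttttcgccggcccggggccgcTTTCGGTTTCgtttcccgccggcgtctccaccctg
PARP14: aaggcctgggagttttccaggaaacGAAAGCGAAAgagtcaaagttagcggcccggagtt

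The ISG15 stretch (chr1:1013359-1013424, plus strand) held 2 overlapping matches that began 113 and 107 bases before the start. HERC5 (chr4:88456969-88457079, plus strand) held 3, of which 2 overlapped, beginning 125, 119 and 74 bases before it. The stretches of PARP9 (minus strand) and DTX3L (plus strand) are the same 60 bases, chr3:122564307-122564366, read in opposite directions, so this single match lies 41 bases before one start and 6 bases before the other. All these distances are from RefSeq starts. The gene spans given below for ISG15 and PARP9 reach further upstream than the starts of the windows that hold these matches, so both stretches lie inside those spans. This does not apply to the other window of PARP9. PARP12 (chr7:140062927-140062986, minus strand) had its match 10 bases, and PARP14 (chr3:122680785-122680844, plus strand) 29 bases, before the start. PARP14 was also the only one of the 8 with the GAS letters TTCNNNGAA (gamma-activated site), which 7.66% of all windows hold. The window of HERC6, the gene with the largest difference between the groups, is shown whole, as it held neither set of letters.
HERC6: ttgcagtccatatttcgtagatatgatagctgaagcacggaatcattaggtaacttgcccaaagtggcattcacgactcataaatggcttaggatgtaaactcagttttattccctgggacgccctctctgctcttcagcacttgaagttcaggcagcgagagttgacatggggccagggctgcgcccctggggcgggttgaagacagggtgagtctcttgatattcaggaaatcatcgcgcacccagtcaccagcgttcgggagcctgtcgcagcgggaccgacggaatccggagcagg
This HERC6 window is chr4:88378602-88378901 on the plus strand. Neither window of UBE2L6 held either set. A match describes the letters and is no evidence of binding.

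**Figure D1:**
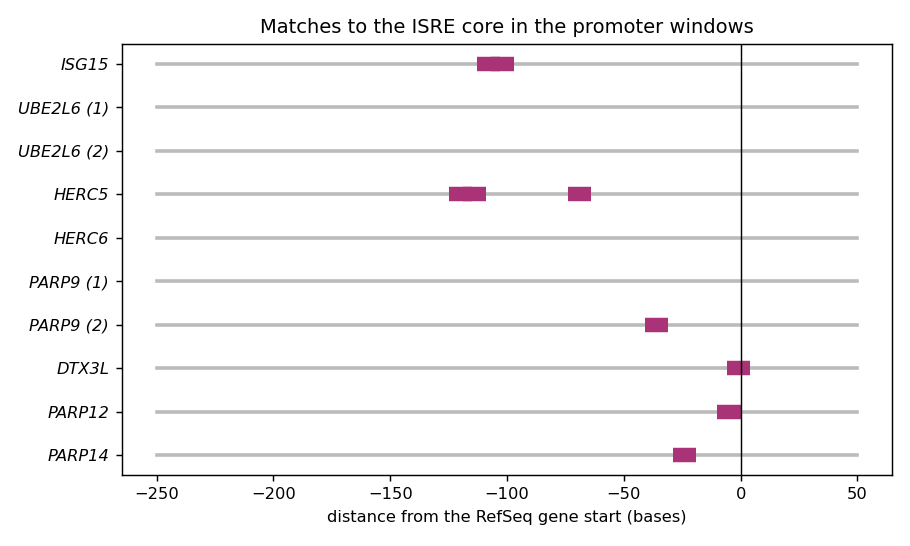
Position of matches to the ISRE core in RefSeq promoter windows, in bases from the gene start at 0; each grey line is a window (numbers in parentheses tell apart windows of one gene) and each bar a match. The matches of PARP9, DTX3L, PARP12 and PARP14 begin within 41 bases before the start, and those of ISG15 and HERC5 lie further upstream.

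The libraries held between 16038062 and 17607612 reads assigned to genes. FPKM are fragments per kilobase of gene, scaled to library size, so levels can be compared roughly between genes. They are not corrected for GC content, so orders and ratios of levels between genes are approximate. The overexpressed gene, TP53INP2, averaged 9.92 ± 0.64 FPKM in NC and 23.1 ± 4.09 FPKM in TP53INP2_OE (SD, n = 3 each). Of 8 mesenchymal markers 4 averaged at least 10 FPKM (VIM, FN1, CD44 and COL1A1), and COL1A2, COL3A1 and THY1 stayed below 1 FPKM. The others did not move together. COL1A1 (mean 121 in NC and 89.0 FPKM in TP53INP2_OE) and PDGFRB (8.20 and 5.90 FPKM) were lower in every TP53INP2_OE library. FN1 (565 and 629 FPKM) and CD44 (142 and 156 FPKM) were higher in every one, and VIM overlapped (731 and 751 FPKM). The 5 adipocyte markers were all below 1 FPKM and summed to between 0 and 0.032 FPKM in NC and between 0.065 and 0.15 FPKM in TP53INP2_OE. ADIPOQ, FABP4 and LEP were at 0, CIDEC had at most 1 read, and PLIN1 had at most 8 reads, with every TP53INP2_OE library (mean 0.10 FPKM) above every NC library (0.016 FPKM). All 8 immune markers were below 1 FPKM in every library, with CLEC4C and LILRA4 at 0, and summed to between 0.20 and 0.53 FPKM in NC and between 0.24 and 0.51 FPKM in TP53INP2_OE. The 3 epithelial markers were all below 1 FPKM and summed to between 0.16 and 0.38 FPKM in NC and between 0.072 and 0.14 FPKM in TP53INP2_OE. Among them EPCAM, with at most 7 reads, was lower in every TP53INP2_OE library. The 3 endothelial markers did not move together. CDH5 was lower in every TP53INP2_OE library (27.3 to 28.6 FPKM) than in NC (30.1 to 34.97 FPKM), VWF was higher in every one (mean 0.81 against 0.70 FPKM), and PECAM1 overlapped (3.96 against 3.69 FPKM). Their sum, mostly CDH5, ran from 34.5 to 39.2 FPKM in NC and from 31.95 to 33.4 FPKM in TP53INP2_OE. The part of these markers in the results below was not tested. In a bulk sample, fewer cells that make an RNA and less RNA per cell cannot be told apart.

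The 10 genes were expressed at very unequal levels. In NC the modifier stood far above its enzymes: ISG15 averaged 140 FPKM, more than 98.7% of the tested genes. UBE2L6 followed at 22.5, PARP12 at 17.7, HERC5 at 12.5, DTX3L at 11.1 and PARP14 at 9.03 FPKM, and none of these neighbours in the order overlapped in their libraries. HERC6 (3.76 FPKM) overlapped with UBA7 (3.61) and UBA7 with PARP9 (3.14), and USP18 was lowest at 2.17 FPKM. In TP53INP2_OE, HERC5 moved from the fourth to the third place, where its libraries overlapped with those of PARP12. ISG15 RNA thus exceeded that of its activating enzyme UBA7 by 33.4 to 47.0 times in the NC libraries and by 46.6 to 62.4 times in the TP53INP2_OE libraries, ranges that overlap.

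All 3 TP53INP2_OE libraries were above all 3 NC libraries for 7 of the 10 genes, where 25.2% of all 14791 tested genes had this order, and below them for 0 of the 10, where 25.6% did. These were ISG15, HERC5, HERC6, PARP9, DTX3L, PARP12 and PARP14. The same 7 had an adjusted p under 0.05 upward in the limma fit across all genes, given here only as a count, where 16.4% of tested genes did, and 0 passed downward, where 18.6% did (35.0% in either direction). Nothing is read from these counts, since the genes were chosen with this difference known. The count that passed was 4 without NC replicate 3 and 4 without TP53INP2_OE replicate 1. The median log2 difference over the 10 genes was 0.25 on the log2(FPKM + 1) scale, beside 0.0032 over all tested genes.

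ISG15, the modifier (chromosome 1, 1001138 to 1014540), had 138, 150 and 133 FPKM in NC and 175, 155 and 176 FPKM in TP53INP2_OE. The groups did not overlap, but the lowest TP53INP2_OE library was close to the highest NC library. The means, 140 ± 8.71 and 169 ± 11.8 FPKM (SD, n = 3 each), differed by a ratio of 1.202, a log2 difference of 0.26 with a standard error of 0.066.

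The genes of the first enzymes of the chain and of the protease overlapped between the groups. UBA7 (chromosome 3, 49805209 to 49813953), the E1, had 4.13, 3.19 and 3.52 FPKM in NC and 3.75, 2.48 and 3.31 FPKM in TP53INP2_OE, and the groups overlapped (log2 difference -0.15, standard error 0.13). UBE2L6 (chromosome 11, 57551656 to 57568284), the E2, had 24.2, 21.8 and 21.4 FPKM in NC and 24.6, 21.5 and 21.6 FPKM in TP53INP2_OE. Its groups lay on top of each other, with a log2 difference of 0.0039 and a standard error of 0.069. USP18 (chromosome 22, 18150170 to 18177397), the protease, had 2.21, 2.65 and 1.66 FPKM in NC and 2.93, 2.13 and 2.89 FPKM in TP53INP2_OE. It overlapped between groups, rested on 55 to 88 reads per library and had a log2 difference of 0.21 with a standard error of 0.14. USP41, a closely related gene whose reads the counting could mix with those of USP18, had at most 1 read in any library.

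The pair of HERC ligases stood furthest apart between the groups. They lie next to each other on chromosome 4, HERC6 at 88378739 to 88443111 and HERC5 at 88457119 to 88506163, 14 kb apart on the same strand. HERC5 had 12.2, 12.5 and 12.8 FPKM in NC and 20.6, 20.8 and 20.4 FPKM in TP53INP2_OE. Its libraries were tightly grouped, and the ratio of the means was 1.64 (log2 difference 0.68, standard error 0.035). HERC6, whose mouse counterpart is the main ISG15 ligase there, had 3.42, 4.10 and 3.75 FPKM in NC and 6.59, 6.82 and 7.57 FPKM in TP53INP2_OE, a ratio of 1.86 (log2 difference 0.75, standard error 0.074). Counted from the highest, HERC6 was in place 159 and HERC5 in place 208 among the log2 differences of the 14791 tested genes. The HERC5 to HERC6 ratio ran from 3.04 to 3.58 in NC and from 2.70 to 3.12 in TP53INP2_OE, ranges that overlap. The ISG15 to HERC5 ratio ran from 10.4 to 12.04 in NC and from 7.46 to 8.63 in TP53INP2_OE, with no overlap. This ratio holds for the deposited values only. With GC content and length fitted out, as described below, ISG15 and HERC5 had nearly equal log2 differences between the groups (0.57 and 0.59).

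**Figure D2:**
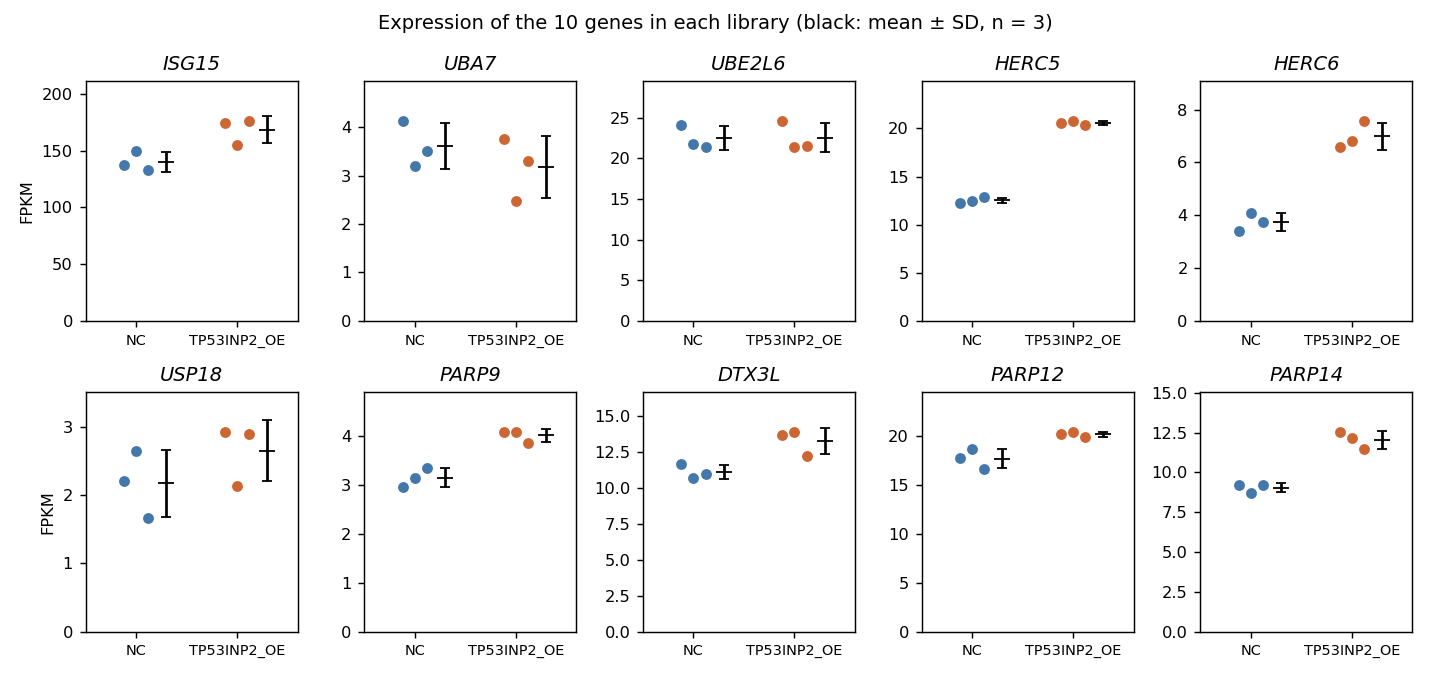
FPKM of each of the 10 genes in the 3 NC (blue) and 3 TP53INP2_OE (orange) libraries, with mean ± SD in black and each vertical axis starting at 0. HERC5 and HERC6 are well separated between the groups, while UBA7, UBE2L6 and USP18 overlap.

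PARP9 and DTX3L, whose proteins act as a complex, differed between the groups by similar amounts. Their genes lie head to head on chromosome 3, PARP9 at 122527924 to 122564577 on the minus strand and DTX3L at 122564338 to 122575203 on the plus strand. They share 240 bases, where reads cannot be assigned with certainty, as no source used here says whether the counting took strand into account. PARP9 had 2.94, 3.14 and 3.33 FPKM in NC and 4.08, 4.07 and 3.86 FPKM in TP53INP2_OE, a log2 difference of 0.27 (standard error 0.058). DTX3L had 11.7, 10.7 and 10.96 FPKM in NC and 13.7, 13.9 and 12.2 FPKM in TP53INP2_OE, a log2 difference of 0.24 (standard error 0.061). Both had every TP53INP2_OE library above every NC library. The DTX3L to PARP9 ratio ran from 3.29 to 3.96 in NC and from 3.16 to 3.41 in TP53INP2_OE.

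PARP14, a large PARP with macrodomains that bind ADP-ribose, lies 105.6 kb beyond DTX3L (chromosome 3, 122680839 to 122730840). It had 9.19, 8.71 and 9.18 FPKM in NC and 12.5, 12.1 and 11.4 FPKM in TP53INP2_OE, the largest difference of the 3 PARP genes (ratio 1.33, log2 difference 0.38, standard error 0.048). PARP12 (chromosome 7, 140023749 to 140062951), a PARP with zinc fingers that bind RNA, had 17.7, 18.6 and 16.7 FPKM in NC and 20.2, 20.5 and 19.9 FPKM in TP53INP2_OE. Its groups did not overlap, with a ratio of 1.14 and a log2 difference of 0.18 (standard error 0.047), the smallest among the 7 genes whose groups were apart.

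The GC content of the transcripts moved with the differences. Over the 14548 tested genes that had a GC value, the log2 difference and GC content had a Spearman's rho of -0.677; genes share the 6 libraries and are not replicates. GC content among the 10 genes ran from 42.4% in PARP14 to 63.4% in ISG15. With splines on GC content and length subtracted library by library, the log2 difference of ISG15 went from 0.26 to 0.57 (standard error 0.044), which put it beside HERC5 at 0.59 and HERC6 at 0.70. UBE2L6 (GC content 57.2%) went from 0.0039 to 0.22, PARP12 (54.5%) from 0.18 to 0.31, USP18 (51.6%) from 0.21 to 0.29 and UBA7 (58.3%) from -0.15 to 0.070. The GC-poor genes moved the other way, with PARP14 at 0.24, PARP9 (43.4%) at 0.16 and DTX3L (44.2%) at 0.15. After the correction 5 of the 10 genes passed upward (ISG15, HERC5, HERC6, PARP12 and PARP14), where 4.53% of 14548 genes did, and 0 downward, where 5.88% did; the median of the 10 was 0.26. The order of the genes within the group therefore differs between the deposited and the corrected scale, while HERC6 was highest on both.

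**Figure D3:**
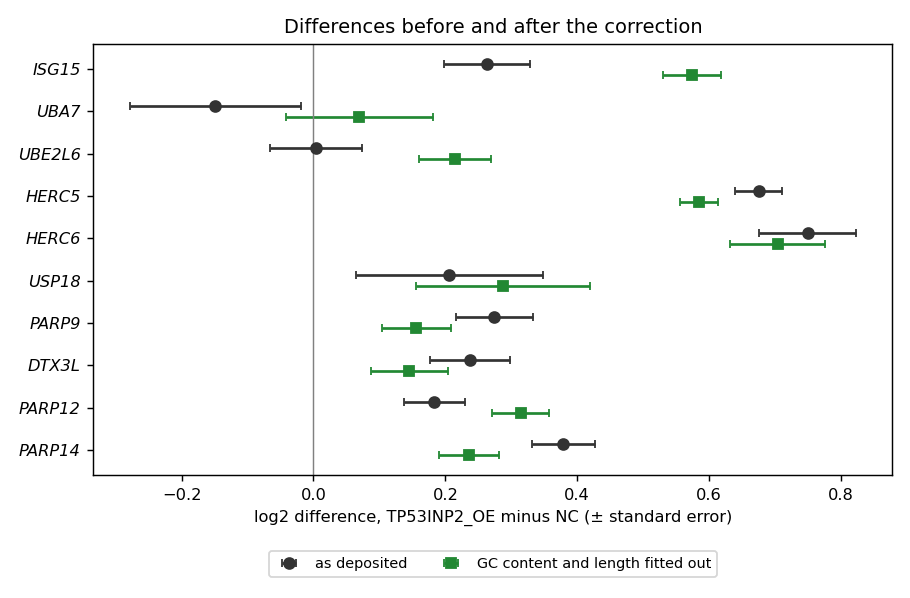
Log2 difference between the groups (± standard error) for each of the 10 genes on the deposited scale (black circles) and with GC content and gene length fitted out (green squares). ISG15 goes from 0.26 to 0.57, and UBA7 crosses 0.

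**Figure D4:**
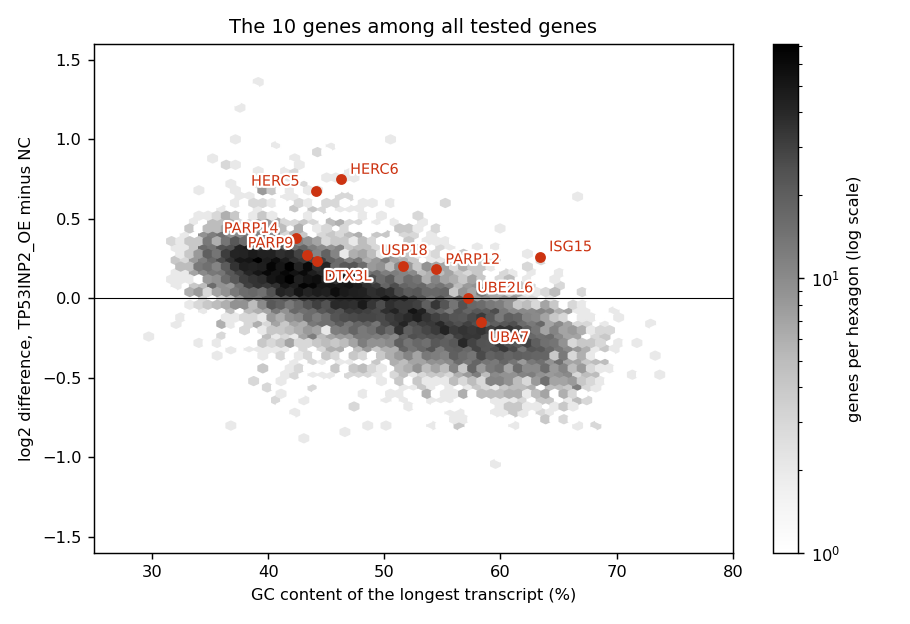
Log2 difference between the groups against GC content of the longest transcript, for tested genes (grey hexagons, darker for more genes on a log scale) and the 10 genes (red); the few genes beyond the axes are not drawn. Differences decline with GC content, and ISG15, HERC5 and HERC6 lie above the bulk of genes at their GC content.

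Of the 14 other genes of the PARP family 12 were tested, of which 4 rose and 2 fell in the limma fit, where 16.4% of all tested genes rose and 18.6% fell, with a median log2 fold change of 0.076. ZC3HAV1, which encodes the zinc-finger antiviral protein, rose from 33.9 ± 2.26 to 64.5 ± 2.62 FPKM (SD, n = 3 each; log2 fold change 0.91, adjusted p = 0.00137), and TIPARP, a target of the aryl hydrocarbon receptor, rose from 4.38 ± 0.42 to 8.58 ± 1.03 FPKM (0.83, adjusted p = 0.0029). TNKS2, a tankyrase, rose by 0.28 (adjusted p = 0.00317), and PARP10, another interferon-linked PARP, fell by 0.36 (adjusted p = 0.012). With GC content and length fitted out, ZC3HAV1 (0.81), TIPARP (0.71) and TNKS2 (0.15) still passed upward, PARP1 passed downward (-0.24) and PARP10 was at -0.035 (adjusted p = 0.737). PARP15, which lies between DTX3L and PARP14, had at most 2 reads in any library. None of the 11 other family genes with a RefSeq window held the ISRE core, ZC3HAV1 and TIPARP among them, where 3.57% of all windows did. At that share, so few genes do not set them apart from other genes. PARP10, PARP4 and TNKS had no window and were not searched. Of 7 genes for removing ADP-ribose or assisting PARP1, 6 were tested, none rose and 2 fell: MACROD1 by 0.49 (adjusted p = 0.0193) and ADPRS by 0.33 (adjusted p = 0.0392). MACROD1 did not pass without NC replicate 1, NC replicate 2 or TP53INP2_OE replicate 3 (adjusted p up to 0.0662), ADPRS passed only without NC replicate 3 among the fits that left out a library (adjusted p up to 0.12), and none of the 6 passed after the correction. DTX2 and DTX3, relatives of DTX3L, fell by 0.20 and 0.22 (adjusted p = 0.0322 and 0.0457), but turned to 0.084 and 0.015 after the correction. DTX2 passed only without TP53INP2_OE replicate 3, and DTX3 only without TP53INP2_OE replicate 2, among those fits (adjusted p up to 0.0942 and 0.139).

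**Figure D5:**
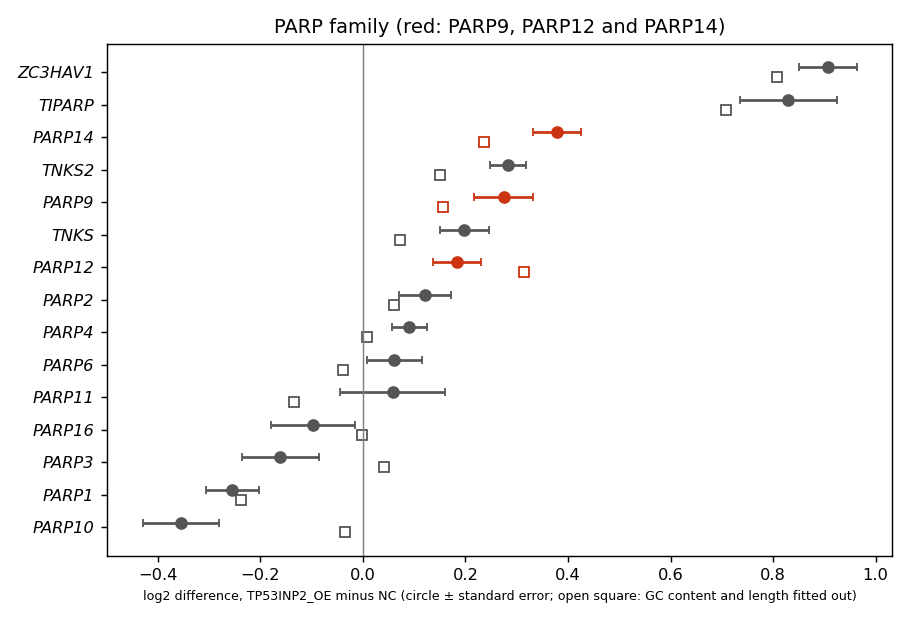
Log2 difference between the groups for tested PARP family genes (circles ± standard error) and the same with GC content and length fitted out (open squares); PARP9, PARP12 and PARP14 are in red. ZC3HAV1 and TIPARP exceed all 3, and PARP1 and PARP10 are lowest on the deposited scale.

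The relatives of the ISG15 enzymes are given beside the same shares of all tested genes, 16.4% rising and 18.6% falling. Of 9 other E1 genes 3 rose and 2 fell (median log2 fold change 0.20). UBA6, an alternative E1 for ubiquitin, rose by 0.41 (adjusted p = 0.00748), NAE1, part of the E1 for NEDD8, by 0.30 (0.00918) and UBA2, part of the E1 for SUMO, by 0.20 (0.0179), while SAE1, the partner of UBA2, fell by 0.24 (0.00725). UBA2 did not pass without NC replicate 1, NC replicate 2, TP53INP2_OE replicate 2 or TP53INP2_OE replicate 3 (adjusted p up to 0.0608), and after the correction only SAE1 passed (-0.19). Of 12 tested genes for other ligases, E2 enzymes and proteases linked to ISG15 or USP18, 3 rose and 1 fell (median 0.038). The proteases USP14 and USP16 rose by 0.32 and 0.24 (adjusted p = 0.00457 and 0.0346), the E2 gene UBE2E1 rose by 0.24 (0.014), and the protease USP5 fell by 0.46 (0.00597). USP16 passed only without TP53INP2_OE replicate 1 among the fits that left out a library (adjusted p up to 0.11). TRIM25, a ligase reported for ISG15, had 16.1 ± 0.33 and 16.02 ± 0.49 FPKM, and UBE2L3, the closest relative of UBE2L6, had 29.4 ± 0.99 and 29.2 ± 0.11 FPKM (SD, n = 3 each). After the correction USP5 (-0.25) and USP13 (-0.15) passed downward in this list and none upward. Of 3 tested relatives of HERC5, HERC4 rose by 0.24 (adjusted p = 0.0121), HERC2 fell by 0.17 (0.0222) and HERC1 did not pass (0.099, adjusted p = 0.15). HERC2 passed only without TP53INP2_OE replicate 1 or 2 among those fits (adjusted p up to 0.0693), and none of the 3 passed after the correction.

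Of 12 tested genes of interferon signalling 4 rose and 4 fell (median 0.045), where 16.4% of all tested genes rose and 18.6% fell; a split in both directions was thus also seen over all genes. JAK2, a kinase of the interferon gamma receptor, had 5.22 ± 0.19 FPKM in NC and 7.63 ± 0.60 in TP53INP2_OE, a rise of 0.47 on the log2 scale (adjusted p = 0.00347). TYK2, a kinase of the type I receptor, fell by 0.31 (adjusted p = 0.00681), and the feedback inhibitors SOCS3 and SOCS1 fell by 0.51 and 0.40 (0.00397 and 0.0223). SOCS1 did not pass without NC replicate 1 or 2 (adjusted p up to 0.0685). After the correction JAK2 (0.28) and JAK1 (0.21) passed upward and none downward. The interferon beta gene IFNB1 averaged 2.13 ± 0.53 and 2.33 ± 0.48 FPKM and the interferon lambda gene IFNL1 1.86 ± 0.81 and 1.46 ± 0.24 FPKM (SD, n = 3 each), and neither passed (adjusted p = 0.699 and 0.508). IFNE had at most 11 reads, IFNL2 at most 3, and IFNK and IFNL3 at most 1, while IFNA1, IFNA2, IFNG and IFNW1 were listed at 0 in all 6 libraries. ITGAL, which with ITGB2 forms the receptor for secreted ISG15, had at most 1 read. ITGB2 had 13 to 39 reads per library, and both genes were below the filter on low values.

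Other interferon-induced families give a scale for these values. Of 8 tested IFIT and OAS genes 6 rose and none fell (median log2 fold change 0.50), where 16.4% of all tested genes rose and 18.6% fell. After the correction 6 rose (median 0.42), where 4.53% of genes did. These were not the same 6 genes. IFIT5 no longer passed (from 0.39 to 0.19, adjusted p = 0.066 in the corrected fit), while OAS3 did (from 0.0034 to 0.12, adjusted p = 0.048). IFIT3 (0.99, adjusted p = 0.00131) and OASL (0.94, adjusted p = 0.00131) exceeded HERC6, while IFIT2 (0.60, adjusted p = 0.00166) and IFIT1 (0.58, adjusted p = 0.00149) were below HERC5. All these values come from the same 6 libraries, and the difference between the families was not tested. The IFIT and OAS list was also chosen with earlier results of these data known, so its counts are a description. The ISRE core was found in 4 of the 6 IFIT and OAS genes with a RefSeq window, where 3.57% of all windows held it. The count is of genes and the share is of windows. IFIT2, OAS2 and OASL had no window and were not searched.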

How the data were processed

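RNA sequencing of 6 libraries (3 NC, 3 TP53INP2_OE, grouped by sample title) was analysed from 1 table in which the authors deposited FPKM values for 60843 genes. Bowtie 0.12.2, mm8 and GRCh38 are listed, with no role, in the submitters' processing notes; how genes were counted is not given in the sources used. FPKM times gene length was a whole multiple of 1 step per library for 100% of values above 0 (tolerance 0.01), which gave the reads behind each value. All 10 genes are on the same chromosome in GENCODE 29 (GRCh38), and 8 share a start or end with it.

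Genes averaging 0.5 FPKM or more over the libraries (14791) were compared as log2(FPKM + 1), a scale that understates changes of low genes, with limma 3.58.1 in R 4.3.3 (two-sided, empirical Bayes with trend, Benjamini-Hochberg over all tested genes, threshold 0.05). All adjusted p-values come from this fit unless the correction or a left-out library is named. For the correction, a smooth curve (natural spline, 5 degrees of freedom) on the GC content of the longest GENCODE 29 transcript, and another on log2 gene length, were subtracted per library, which would also take out biological differences that follow GC content. Members and lists were chosen with earlier results of these data known. The 10 genes are part of the fit across all genes, but how many of them passed is a description and supports nothing. How many genes of each other list passed is likewise a description. Named from the other lists were the 4 largest changes past the threshold, or the 2 most expressed genes where fewer than 2 passed, and the interferon ligands above 0. For their role or their value, further genes were named after their values were seen. These were TRIM25, UBE2L3, HERC1, USP13, JAK1, PARP1, PARP15, ITGAL, ITGB2, the ligands at 0 and the neighbouring genes. ADPRS is held in the table as ADPRHL2. Every pair of libraries differed by more than sampling noise (chi-square per degree of freedom from 2.48 to 4.60 within groups).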

Additional observations from a re-analysis of the deposited data

How the results depend on the processing

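The median log2 difference of the 10 genes stayed between 0.225 and 0.293 in the 17 alternatives, and 7 or 8 of them had the groups apart (6 of 7 among genes of at least 5 FPKM, where UBA7, USP18 and PARP9 had no value). How often each of the 10 genes had an adjusted p under 0.05 is a description, as they were chosen for this difference: HERC5 and HERC6 in 17 of 17, PARP14 in 16, PARP12 in 12, ISG15 in 11, DTX3L in 10 and UBE2L6 in 1, PARP9 in 14 of 16, and UBA7 and USP18 in 0 of 16. UBA7 turned above 0 in 2 of 16 alternatives, both with the GC content and length correction, and UBE2L6 was below 0 in 3 of 17. With a library left out, 4 to 6 of the 10 genes passed, 3276 to 4779 genes passed in all (1460 to 2203 higher and 1816 to 2576 lower), and 16 to 21 genes of the other lists rose and 6 to 12 fell. After the correction 1514 genes passed, 659 higher and 855 lower, with 11 and 4 in the other lists. DTX2 and DTX3, which had fallen, reversed to 0.084 and 0.015 in that correction, with and without the replicate block. Without a filter on low values 9 genes of the other lists fell. Same-numbered libraries deviated together by a correlation of at most 0.017, so the numbers are not taken as pairs. The replicate block gave 4396 genes, 6 of the 10 and 9 falling genes in the other lists. The block with the correction gave 668 genes (267 higher, 401 lower), 5 of the 10, and 7 rising and 0 falling genes in the other lists. USP18, with 55 to 88 reads per library, is the gene for which depth limits precision most.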

Other observations

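Of the 14 nearest tested genes on either side, other than the 10 themselves, 2 rose, 4 fell and 8 did not pass, where 16.4% of all tested genes rose and 18.6% fell. After the GC content and length correction 1 rose and 1 fell, where 4.53% and 5.88% of all genes did. So few genes do not set the neighbours apart from other genes. ISG15 lies between HES4, a transcriptional repressor, and AGRN, which encodes agrin, and both fell (HES4 from 32.7 ± 1.34 to 23.3 ± 2.83 FPKM, log2 fold change -0.48, limma adjusted p = 0.00692; AGRN from 68.5 ± 3.63 to 54.8 ± 2.58 FPKM, -0.32, adjusted p = 0.00597; SD, n = 3 each). With GC content (73.9% and 67.5%) and length fitted out they were at -0.11 and -0.0015 and no longer passed. TIMM10, a mitochondrial import chaperone next to UBE2L6, fell from 37.1 ± 2.51 to 24.4 ± 1.34 FPKM (-0.58, adjusted p = 0.00276) and still passed after the correction (-0.50). KDM7A, a histone demethylase next to PARP12, rose from 4.29 ± 0.22 to 6.38 ± 0.24 FPKM (0.48, adjusted p = 0.00284) and kept its call after the correction (0.28). PPM1K and PYURF, on either side of HERC6 and HERC5, did not pass (adjusted p = 0.124 and 0.443). PPM1K did pass in 3 of 16 alternatives. Among these were the limma fit without TP53INP2_OE replicate 3 (log2 fold change 0.38, adjusted p = 0.0295) and that of protein-coding genes only (0.27, adjusted p = 0.0481).

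The genes whose log2(FPKM + 1) profile over the 6 libraries, centred on its mean, lay closest to that of ISG15 among 7263 genes of at least 5 FPKM were IRAK2, CCL5 and EFL1, with root-mean-square differences of 0.034, 0.036 and 0.043. Closest to PARP14 were GCC2, LYSMD3 and GPBP1, with 0.028, 0.030 and 0.033. Profiles over 2 groups of 3 libraries mainly reflect the difference between the groups.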
